A study of Homo sapiens with 42 samples.

Results

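The response of 3 HPV-positive head and neck squamous cell carcinoma lines to cetuximab was compared, with SCC047 and 93VU147T on one side and SCC090 on the other. The members are 18 of the 42 arrays of the series, picked by their labels, with 3 cetuximab and 3 control arrays for each line. They were chosen with earlier results of these data known. For every gene the change was cetuximab minus control, and the quantity of interest was the mean change of SCC047 and 93VU147T minus the change of SCC090, called the difference of the response. The question was which programs responded in the first pair of lines and not in SCC090.

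The treated cells of all 3 lines received 100 nM cetuximab for 24 hours. The control arrays carry an untreated label, and the methods give PBS as the control. The series also holds HPV-negative lines and HaCaT keratinocytes. Its labels give a cetuximab survival of 31.2% for SCC047, 35.57% for 93VU147T and 39.07% for SCC090. They give no duration, and the methods describe survival after 7 days of treatment. The labels hold 1 value per line with no error, so no relation with expression was tested. The labels give no genotype, and each group is 1 established line, so a value belongs to that line. No source used here says that the 3 arrays of a group came from separate cultures, so the p-values measure the spread between these arrays.

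Cetuximab is an antibody that binds the epidermal growth factor receptor (EGFR) and blocks its ligands. In squamous epithelium, EGFR signals through RAS and ERK to immediate early transcription factors, to feedback inhibitors of the same pathway and to MYC, and it restrains keratinocyte differentiation. Blocking EGFR in keratinocytes is also known to raise interferon-stimulated genes and to lower some inflammatory cytokines.

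Values are log2 expression on Affymetrix arrays, with 1 probe set per gene and 19775 genes. A gene was called when its adjusted p in limma was under 0.05. All 18 arrays lie in 1 scan batch. On 8 squamous epithelial markers every array averaged between 10.01 and 11.45, and on 9 fibroblast, 8 leukocyte and 8 endothelial markers between 4.51 and 5.48. The difference of the response was called for 1 leukocyte marker (LAPTM5, -0.81), 1 fibroblast marker (DCN, -0.42) and 1 endothelial marker (VWF, -0.68), all lower, and their part in the results was not tested. The 3' minus 5' signal of ACTB moved by 0.11 in SCC047, 0 in 93VU147T and 0.06 in SCC090 (exact permutation p = 0.1, 1 and 0.3, where 0.1 is the smallest that 3 against 3 arrays allow), and that of GAPDH by 0.04, -0.03 and 0.03 (exact permutation p = 0.1, 0.5 and 0.2). One array stood apart. SCC090 control replicate 1 differed from the other SCC090 controls with an SD over genes of 0.31 and 0.297, while those 2 differed by 0.17, so results that rest on it are given with and without it where it changed a call or a count of a list by over 1.5 times.

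SCC047 and 93VU147T responded broadly and SCC090 narrowly. In SCC047, 3415 genes rose (17.3% of those tested) and 3750 fell (19%). In 93VU147T, 3129 rose (15.8%) and 3716 fell (18.8%). In SCC090, 102 rose (0.516%) and 175 fell (0.885%), and 2415 genes had an unadjusted p under 0.05. At such low shares most short lists of genes would hold no call in SCC090. Without SCC090 control replicate 1 the SCC090 calls numbered 50, with 18 higher and 32 lower. Without control replicate 2 they numbered 745, and without control replicate 3 they numbered 566. The SD of the change over all genes was 0.361 in SCC047, 0.349 in 93VU147T and 0.167 in SCC090. By a cruder count, the 3 treated and 3 control arrays did not overlap for 43.8% of genes in SCC047, 41.8% in 93VU147T and 15.6% in SCC090.

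The difference of the response was called for 5493 genes, 2762 higher (14%) and 2731 lower (13.8%). With array medians centred the split became 3629 higher and 1882 lower, as the median difference over all genes moved from -0.037 to 0.035. A mean of 2 lines can pass through 1 of them, so both lines were also set against SCC090 one at a time. Both passed with 1 sign for 1300 genes higher (6.57%) and 1061 lower (5.37%), or 1779 and 729 with centred medians.

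Another set held the genes that changed in SCC047 and in 93VU147T with 1 sign and did not pass with that sign in SCC090. The difference of the response, which uses the mean of both lines, also had to pass with that sign. Neither line had to pass against SCC090 by itself. A call in SCC090 with the opposite sign did not exclude a gene, and the set holds 19 such genes. The set had 1540 higher genes (7.79%) and 1411 lower genes (7.14%), or 2199 and 846 with centred medians. These genes are called below the two-line genes. Their median change had a size of 0.526 in SCC047 and 0.504 in 93VU147T. In SCC090 the median change in the same direction was -0.016, with quartiles of -0.092 and 0.054. Since the set was chosen on these arrays, these sizes are a description. The set had 2978 genes without SCC090 control replicate 1, and 2724 of the 2951 were in both versions. Centring each array's median gave SCC047 4793 higher and 2405 lower genes and 93VU147T 4182 and 2417, so the balance of higher and lower calls depends on scaling in these lines.

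**Figure D1:**
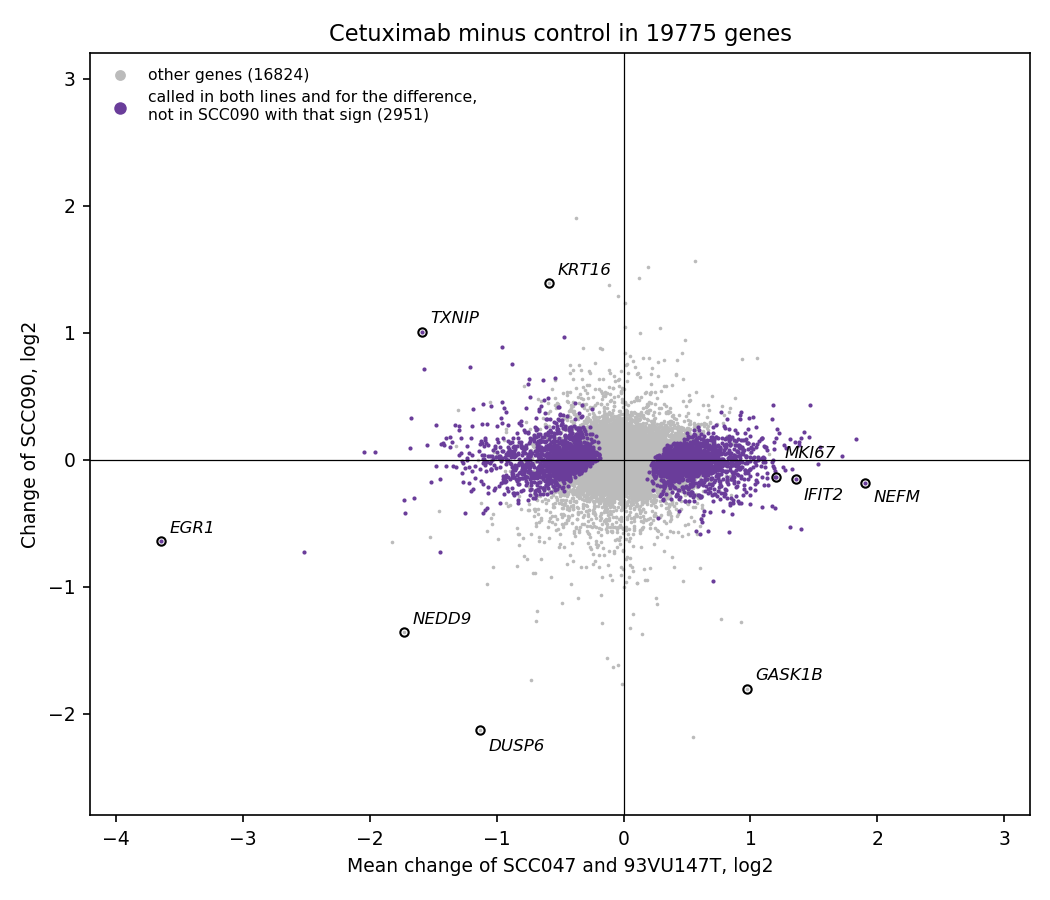
Mean change of SCC047 and 93VU147T (x axis, log2) against the change of SCC090 (y axis, log2) for 19775 genes, 1 point per gene. Most of the 2951 two-line genes (purple) lie close to 0 on the y axis, as the choice of the set favours. The set includes 19 genes called in SCC090 with the opposite sign, among them TXNIP. DUSP6 and NEDD9 lie low on both axes.

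Interferon-stimulated genes had the most positive median difference of the response among lists of 10 or more genes, 0.681 against -0.037 over all genes. Of 35 genes in the list, 21 had a higher difference and 0 a lower one, against 14% and 13.8% of all genes. SCC047 had 31 higher and 1 lower, 93VU147T 16 higher and 2 lower, and SCC090 0 in either direction. The median change was 1.065 in SCC047, 0.251 in 93VU147T and 0.059 in SCC090, where medians over all genes were -0.03, -0.042 and 0. Of the 35, 14 were two-line genes. The counts of higher and lower differences were 24 and 0 with centred medians, 20 and 0 after quantile normalization and 19 and 0 without SCC090 control replicate 1.

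Promoters of this group are shown because many genes of the list carry a short element there. Interferon-activated factors of the STAT and IRF families bind an element that contains a pair of GAAA blocks with any 2 bases in between. In RefSeq promoters of GRCh38.p14, taken from 250 bases before to 50 after the gene start, this motif was searched on both strands. It was present in 996 of 27305 promoters (3.65%), and in 20 of the 29 list members with a promoter in the table (69%). Of the members named below, IFIH1, SAMD9, MX1, ISG15 and DDX60 had a match, and HERC6, RIGI, XAF1 and CMPK2 had none. IFIT2, MX2 and USP18 had no promoter in the table. IFIT3 and IFI44, members with a match, are printed 5' to 3' with the matches in capitals. Both read here as the reverse complement, a pair of TTTC blocks with any 2 bases in between. The IFIT3 promoter is chr10:89327747-89328046 on the plus strand, and the IFI44 promoter is chr1:78649539-78649838 on the plus strand.
IFIT3: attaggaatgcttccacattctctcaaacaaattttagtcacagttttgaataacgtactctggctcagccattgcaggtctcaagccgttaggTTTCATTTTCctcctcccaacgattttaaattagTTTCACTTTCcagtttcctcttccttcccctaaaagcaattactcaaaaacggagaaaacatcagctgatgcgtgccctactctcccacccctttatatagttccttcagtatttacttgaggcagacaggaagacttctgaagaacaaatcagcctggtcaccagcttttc
IFI44: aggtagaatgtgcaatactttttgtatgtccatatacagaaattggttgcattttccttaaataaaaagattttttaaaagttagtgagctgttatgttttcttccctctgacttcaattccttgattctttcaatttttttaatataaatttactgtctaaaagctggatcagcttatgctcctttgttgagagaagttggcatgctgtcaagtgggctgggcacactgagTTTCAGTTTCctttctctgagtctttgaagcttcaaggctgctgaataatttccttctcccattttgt
The IFIT3 matches start 156 and 122 bases before the gene start, and the IFI44 match starts 18 bases before it. A match is a description of the letters and not of a bound factor.

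IFIT3 encodes an antiviral protein that works in a complex with its IFIT relatives. Its control arrays read 11.45, 11.02 and 11.45 in SCC047 and its cetuximab arrays 12.78, 12.50 and 12.37. In 93VU147T the controls read 7.33, 7.15 and 6.84 and the cetuximab arrays 8.79, 8.66 and 8.90. In SCC090 the controls read 3.50, 3.52 and 3.46 and the cetuximab arrays 3.60, 3.73 and 3.67. All treated arrays lay above all controls in each line, but the SCC090 arrays stayed near the floor of the scale. IFIT3 rose 2.37-fold in SCC047 and 3.19-fold in 93VU147T, and the SCC090 change was 0.18 (95% CI -0.10 to 0.45). The difference of the response was 1.28 ± 0.16 (SE, 3 arrays per group, adjusted p = 7.39e-07).

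IFIT2, a partner of IFIT3, rose by 1.06 in SCC047 and by 1.65 in 93VU147T, with an SCC090 change of -0.15. Its difference of 1.51 ± 0.14 (adjusted p = 5.49e-09) was the largest of the list. HERC6, a ligase of the interferon response, rose by 1.55 and 1.24, with 0.17 in SCC090. SAMD9, an antiviral restriction factor, rose by 1.13 and 1.81. Its SCC090 change was 0.43 (95% CI 0.15 to 0.71, adjusted p = 0.135), which did not pass across all genes. RIGI and IFIH1, the cytosolic sensors of viral RNA, were also two-line genes, rising by 0.60 and 1.34 in SCC047 and by 0.88 and 0.87 in 93VU147T.

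The pair of lines did not respond alike within this group. The change was larger in SCC047 than in 93VU147T for 18 of the 35 genes and smaller for 4, each by the test between those lines. XAF1, which encodes an interferon-induced antagonist of caspase inhibitors, read 8.25, 7.65 and 8.09 in SCC047 controls and 10.33, 9.86 and 9.94 after cetuximab. In 93VU147T XAF1 read 5.20, 4.69 and 4.59 and then 5.24, 5.11 and 4.89. In SCC090 XAF1 read 4.27, 4.53 and 4.04 and then 4.29, 4.32 and 4.37. Only the SCC047 arrays separated clearly. XAF1 rose 4.13-fold in SCC047, and its change there exceeded that of 93VU147T by 1.80 (adjusted p = 2.39e-06).

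Further members were singled out after their values were seen. MX2, a myxovirus resistance GTPase, changed by 2.03 in SCC047, -0.03 in 93VU147T and 0.05 in SCC090. MX1, USP18 and ISG15 followed the same order with 1.21, 1.52 and 0.85 in SCC047 and -0.25, -0.19 and 0 in 93VU147T, none of which passed in 93VU147T. CMPK2, a mitochondrial nucleotide kinase, rose by 1.15 in SCC047 and fell by 0.54 in 93VU147T. DDX60, an RNA helicase, went the other way, with -0.41 in SCC047 and 0.95 in 93VU147T. Set against SCC090 one line at a time, SCC047 had 27 higher genes of the list, and 93VU147T had 12 higher and 1 lower.

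**Figure D2:**
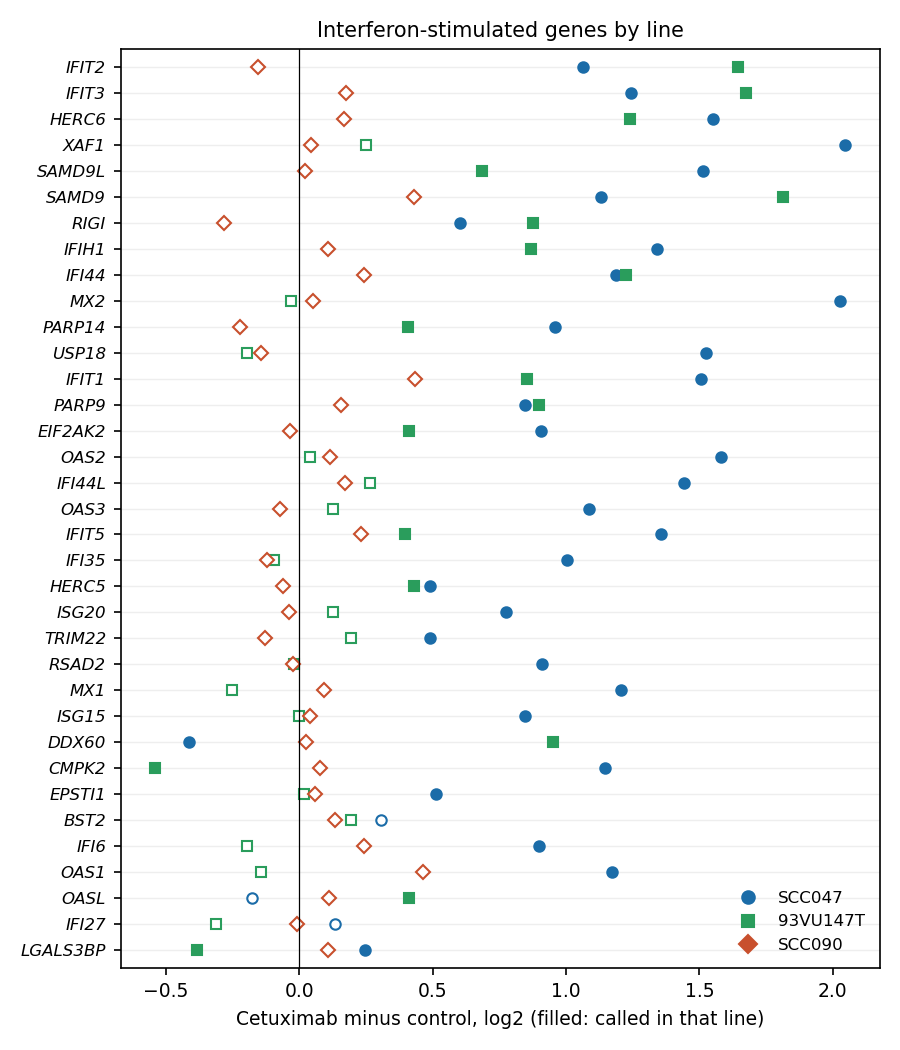
Change with cetuximab (x axis, log2) of 35 interferon-stimulated genes (y axis, ordered by the difference of the response) in SCC047 (circles), 93VU147T (squares) and SCC090 (diamonds), filled where the gene was called in that line. No SCC090 symbol is filled, and SCC047 lies furthest right for most genes.

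Levels in untreated cells of the same list are given beside this, with no relation drawn, because they use the same control arrays as the response. In untreated cells, SCC090 was lower than the mean of the other lines for 34 of the 35 genes, where 36.1% of all genes were lower and 27.9% higher. Of the 35 genes, 22 lay below the median level of all genes in untreated SCC090, 8 did so in 93VU147T and 0 in SCC047. A change near the floor of an array is compressed, and its part in the difference was not tested. Over the two-line genes, 110 of the 1540 higher ones (7.14%) and 406 of the 1411 lower ones (28.8%) lay below the median level in untreated SCC090.

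The receptors and factors of interferon signalling did not share one direction. Of 21 genes, 4 had a higher difference and 5 a lower one, against 14% and 13.8% of all genes. IFNAR1, a subunit of the type I interferon receptor, rose by 0.55 in SCC047 and by 0.42 in 93VU147T, and JAK2, a kinase of cytokine receptors, rose by 0.64 and 0.85. IFNGR2, a subunit of the interferon gamma receptor, fell by 0.68 and 0.63, and SOCS3, a feedback inhibitor, fell by 0.78 and 0.70. The SCC090 changes of these 4 genes lay between 0.00 and 0.17 and none was called. IFNB1, the gene of interferon beta, changed by 0.04, -0.01 and 0.02 and was called in no line. Among 13 genes of MHC class I presentation, 2 differences were higher and 3 lower. Without SCC090 control replicate 1 the counts were 2 higher and 4 lower for interferon signalling and 1 higher and 2 lower for MHC class I presentation.

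Immediate early genes fell in SCC047 and 93VU147T, and none of the list was called in SCC090. These transcription factors are switched on within minutes of ERK activity. Of 11 genes, 8 had a lower difference and 0 a higher one, and the same 8 were two-line genes, against 13.8% of all genes with a lower difference. The medians of the list were -0.803 in SCC047, -0.544 in 93VU147T and -0.019 in SCC090. In untreated cells 10 of the 11 were lower in SCC090 than in the mean of the other lines, against 36.1% of all genes. Lower differences numbered 8 with centred medians, after quantile normalization and without SCC090 control replicate 1.

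EGR1, a zinc finger factor of this class, had the most negative difference of all genes called against SCC090 in both lines. Its promoter is shown for the serum response elements through which ERK acts on it, known by their core, the CArG box. The promoter is chr5:138465229-138465528 on the plus strand of GRCh38.p14, with the CArG boxes in capitals.
EGR1: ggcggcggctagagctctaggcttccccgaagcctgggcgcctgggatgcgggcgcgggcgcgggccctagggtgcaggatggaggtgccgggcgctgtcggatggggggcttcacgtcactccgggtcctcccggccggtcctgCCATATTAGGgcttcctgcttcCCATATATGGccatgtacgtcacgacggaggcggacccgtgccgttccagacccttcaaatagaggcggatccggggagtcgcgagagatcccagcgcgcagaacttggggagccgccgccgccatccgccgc
The boxes start 105 and 83 bases before the gene start. The CArG box occurred in 351 of 27305 promoters (1.29%) and in 2 of the 8 immediate early promoters in the table, on either strand.

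EGR1 control arrays read 10.54, 11.00 and 10.77 in SCC047, and cetuximab arrays 7.12, 7.15 and 7.49. In 93VU147T EGR1 read 10.32, 9.65 and 9.56, and then 6.16, 5.83 and 6.22. In SCC090 EGR1 read 10.18, 9.20 and 9.25, and then 8.93, 8.80 and 8.95. The groups were wide apart in the first pair of lines, and in SCC090 the treated arrays were below the controls by a small margin, with control replicate 1 the highest. EGR1 fell 11.4-fold in SCC047 and 13.7-fold in 93VU147T, and its SCC090 change was -0.64 (95% CI -1.18 to -0.11, adjusted p = 0.28). The difference was -3.00 ± 0.32 (adjusted p = 3.91e-08), and -3.32 without SCC090 control replicate 1.

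Several genes of the AP-1 family fell too, while the difference of FOSB, -0.37, did not pass (adjusted p = 0.0508). FOS fell by 1.18 in SCC047 and by 1.32 in 93VU147T, with -0.42 in SCC090. JUN fell by 0.83 and 1.67, and its SCC090 arrays read 9.71, 9.65 and 9.68 and then 9.68, 9.55 and 9.62, so that the treated and control arrays overlapped. ATF3, a stress-induced partner of JUN, fell by 0.98 and 1.89 with 0.13 in SCC090. EGR3, JUNB, IER2 and KLF10 had differences of -0.97, -0.87, -0.52 and -0.49.

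**Figure D3:**
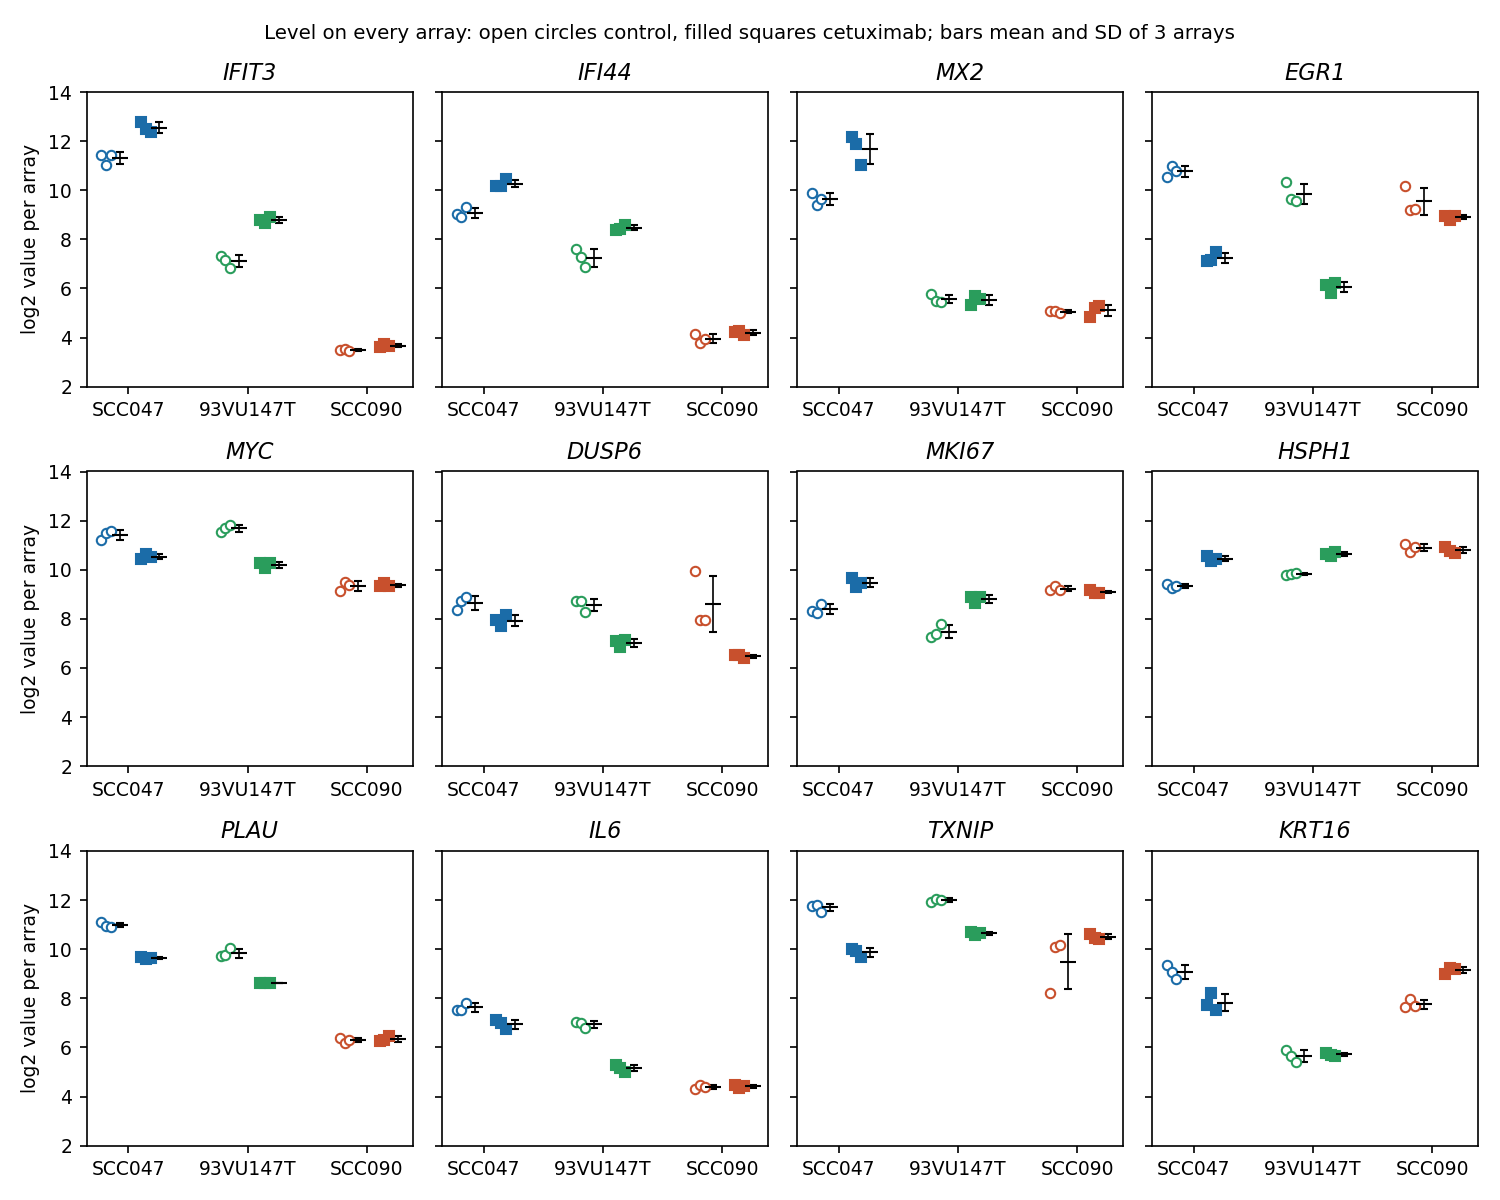
Level (y axis, log2) of 12 genes on every array of SCC047, 93VU147T and SCC090, with control arrays as open circles and cetuximab arrays as filled squares; bars give the mean and SD of 3 arrays. EGR1, MYC, PLAU and IL6 were called lower in SCC047 and 93VU147T and not in SCC090, DUSP6 was called lower in all 3 lines, and KRT16 and TXNIP were called higher in SCC090, for TXNIP not without the low control replicate 1.

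The list of ERK output genes, which shares EGR1 with the immediate early list, held calls in SCC090 too. Of 19 genes that report ERK activity, 10 fell in SCC047, 15 fell in 93VU147T and 8 fell in SCC090, against 0.885% of all genes lower in SCC090. The difference was higher for 5 genes and lower for 5, against 14% and 13.8% of all genes. The list as a whole thus had no single direction. In SCC090 5 genes were lower without control replicate 1, and the difference was then higher for 1 and lower for 5. With centred medians it was higher for 7 and lower for 5.

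DUSP6, the phosphatase that dephosphorylates ERK as feedback, read 8.35, 8.71 and 8.89 in SCC047 controls and 7.94, 7.71 and 8.14 after cetuximab. In 93VU147T DUSP6 read 8.72, 8.71 and 8.28 and then 7.10, 6.84 and 7.15. In SCC090 DUSP6 read 9.93, 7.95 and 7.96 and then 6.52, 6.51 and 6.41. No treated array reached a control array of its own line. DUSP6 fell by 0.72, 1.54 and 2.13 in the 3 lines. Leaving out SCC090 control replicate 1 gave an SCC090 change of -1.473 (adjusted p = 1.36e-06), and the difference dropped from 1.00 (adjusted p = 0.0245) to 0.341 (adjusted p = 0.188).

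SPRY2, a feedback inhibitor of receptor signalling, fell by 0.63, 0.74 and 1.27 and its difference did not pass (adjusted p = 0.0822). ETV4, an ERK-dependent ETS factor, fell by 0.44, 0.69 and 0.49. ETV5, its close relative, was called in SCC090 alone. It read 9.27, 7.43 and 7.44 in SCC090 controls and 6.46, 6.34 and 6.45 after cetuximab, with no overlap, and the SCC090 change without control replicate 1 was -1.018 (adjusted p = 4.44e-05).

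Other ERK output genes separated the lines. MYC, the growth regulator, read 11.20, 11.51 and 11.57 in SCC047 controls and 10.43, 10.63 and 10.52 after cetuximab. In 93VU147T MYC read 11.54, 11.69 and 11.84 and then 10.28, 10.05 and 10.27. In SCC090 MYC read 9.12, 9.49 and 9.39 and then 9.32, 9.44 and 9.35, where the groups overlapped. The difference was -1.23 ± 0.12 (adjusted p = 1.13e-08). DUSP5, a nuclear ERK phosphatase, fell by 1.10 and 1.08 with 0.15 in SCC090, and EPHA2, a receptor of ephrins, fell by 0.59 and 0.67 with 0.15. The remaining two-line genes of the list were EGR1 and LIF, a cytokine of the IL6 family.

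**Figure D4:**
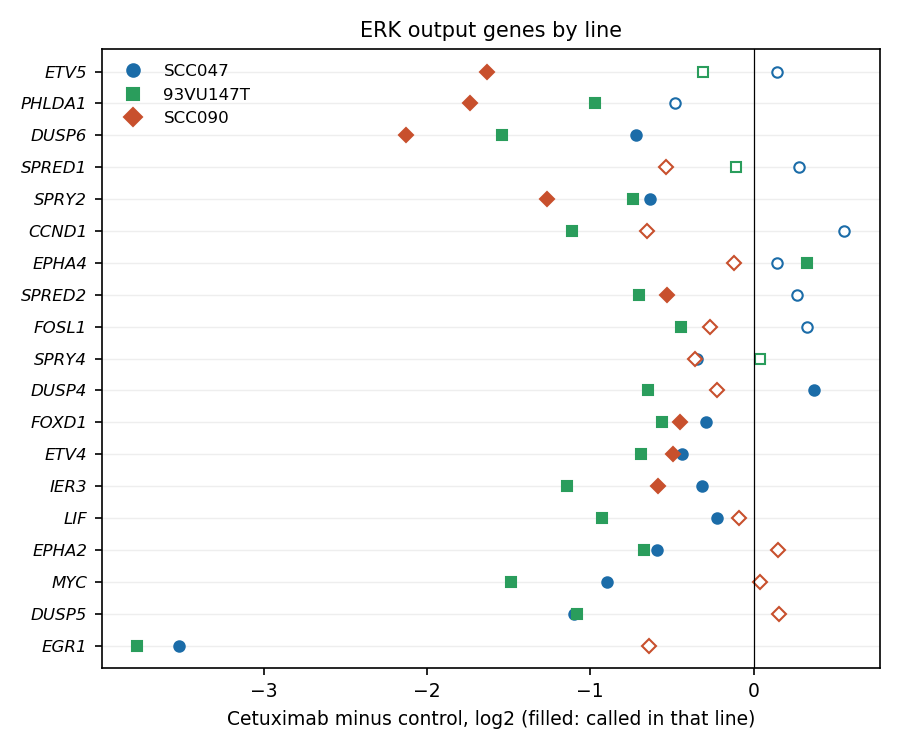
Change with cetuximab (x axis, log2) of 19 ERK output genes (y axis, ordered by the difference of the response) in SCC047 (circles), 93VU147T (squares) and SCC090 (diamonds), filled where called in that line. Filled SCC090 symbols include DUSP6, SPRY2, ETV5 and PHLDA1, while EGR1, DUSP5, MYC and EPHA2 are filled in the other lines alone.

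Genes called in all 3 lines with 1 sign numbered 41, of which 38 were lower and 3 higher. For 8 of the 41 the difference was called as well. Without SCC090 control replicate 1 the counts were 9 lower and 0 higher, and DUSP6, SPRY2, IER3 and HAS3 were among the 9. Among the 41, genes with large changes that were named after their values were seen were NEDD9, an adaptor of integrin signalling (-1.82, -1.64 and -1.36 in SCC047, 93VU147T and SCC090), CCN1 (-1.50, -2.15 and -0.65) and CCN2 (-0.93, -1.23 and -0.98), matricellular targets of YAP, and the metalloprotease MMP2 (-0.98, -1.07 and -0.85), all 4 of which lost the SCC090 call without that array. HBEGF, an EGFR ligand, fell by 0.54, 0.80 and 0.64, but without SCC090 control replicate 1 its SCC090 change of -0.454 was not called (adjusted p = 0.559). The higher ones were SLC2A1, a glucose transporter, ARRDC3, an arrestin-like adaptor, and BEND6. Calls in both SCC047 and 93VU147T with 1 sign numbered 3544.

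Most genes of NF-kB feedback fell in SCC047 and 93VU147T. Of 9 genes in the list, 7 fell in SCC047, 7 in 93VU147T and 1 in SCC090, and 0 rose. In this list 5 had a lower difference and 0 a higher one, against 13.8% and 14% of all genes. All 5 were two-line genes. In untreated cells 8 of the 9 were lower in SCC090 than in the mean of the other lines, against 36.1% of all genes. The part of the starting level in the difference was not tested. TNFAIP3, which removes ubiquitin to stop NF-kB signalling, read 10.06, 10.12 and 9.90 in SCC047 controls and 9.34, 9.16 and 9.21 after cetuximab. In 93VU147T TNFAIP3 read 8.39, 8.22 and 8.07 and then 6.52, 6.61 and 6.63. In SCC090 TNFAIP3 read 5.97, 7.17 and 7.04 and then 6.57, 6.80 and 6.64. Control replicate 1 of SCC090 lay below and the other 2 controls above every treated array, and without that replicate the SCC090 change was -0.431 (adjusted p = 0.0711) and the difference -0.783 in place of -1.16. ICAM1, an adhesion molecule, NFKBIA and NFKBIE, inhibitors that hold NF-kB in the cytoplasm, and RELB, an NF-kB subunit, had differences of -1.02, -0.77, -0.66 and -0.61. NFKB2 fell in all 3 lines (-0.64, -0.94 and -0.61), with the SCC090 call lost without that replicate (adjusted p = 0.106).

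Of 15 inflammatory cytokines, 7 fell and 1 rose in SCC047, 11 fell and 0 rose in 93VU147T, and 0 were called in SCC090. The shares of all genes that fell were 19% in SCC047, 18.8% in 93VU147T and 0.885% in SCC090. The difference was lower for 7 and higher for 0, against 13.8% and 14% of all genes. IL6 read 7.52, 7.54 and 7.83 in SCC047 controls and 7.11, 6.98 and 6.74 after cetuximab. In 93VU147T IL6 read 7.05, 6.99 and 6.79 and then 5.27, 5.18 and 5.02. In SCC090 IL6 read 4.32, 4.49 and 4.39 and then 4.49, 4.34 and 4.41, where the groups overlapped. IL6 fell 1.61-fold in SCC047 and 3.44-fold in 93VU147T, with a difference of -1.25 ± 0.14 (adjusted p = 5.97e-08).

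IL1A and IL1B, the interleukin 1 pair, had differences of -1.35 and -1.24, and CXCL8, a neutrophil chemokine, of -1.35. CXCL8 read 3.63 to 4.01 on the 6 SCC090 arrays, and all 15 cytokines lay below the median level of all genes in untreated SCC090, against 8 in SCC047 and 8 in 93VU147T. The fall was larger in 93VU147T than in SCC047 for 7 of the 15 and smaller for 0. Of the list, 6 were two-line genes, and 3 were with centred medians.

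Genes of mitosis and the G2 phase rose in SCC047 and 93VU147T. Of 23 genes, 17 had a higher difference and 0 a lower one, against 14% of all genes with a higher one. In SCC047 17 rose, in 93VU147T 22 rose and in SCC090 0 were called. The medians were 0.464, 0.722 and 0.076. In untreated cells 19 of the 23 were higher in SCC090 than in the mean of the other lines and 3 lower, against 27.9% and 36.1% of all genes. The difference was higher for 19 with centred medians, 14 after quantile normalization and 19 without SCC090 control replicate 1.

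MKI67, the gene of the proliferation antigen Ki-67, is shown with its promoter for an element of many mitotic genes. These carry a cell cycle homology region with the core TTTGAA and CCAAT boxes upstream. The promoter is chr10:128126374-128126673 on the minus strand of GRCh38.p14, with TTTGAA in capitals.
MKI67: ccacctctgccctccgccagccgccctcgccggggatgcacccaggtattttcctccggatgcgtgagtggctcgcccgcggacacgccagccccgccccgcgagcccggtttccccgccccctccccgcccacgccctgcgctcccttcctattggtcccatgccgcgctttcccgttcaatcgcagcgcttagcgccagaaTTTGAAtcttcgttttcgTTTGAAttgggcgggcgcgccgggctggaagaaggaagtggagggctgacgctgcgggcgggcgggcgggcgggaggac
The matches start 47 and 29 bases before the gene start. On both strands, TTTGAA occurred in 4212 of 27305 promoters (15.4%) and in 12 of the 18 promoters of the list in the table (66.7%). CCAAT occurred in 9747 of all promoters (35.7%) and in 16 of those 18 (88.9%). CENPE, named below, held neither. None of the 18 held the spaced pair of GAAA blocks, and 3 of the 29 interferon-stimulated promoters held TTTGAA.

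MKI67 read 8.33, 8.25 and 8.62 in SCC047 controls and 9.65, 9.31 and 9.47 after cetuximab. In 93VU147T MKI67 read 7.27, 7.39 and 7.77 and then 8.90, 8.63 and 8.89. In SCC090 MKI67 read 9.17, 9.33 and 9.19 and then 9.16, 9.06 and 9.07. In SCC090 the treated arrays lay just below the controls, and in the other lines far above them. MKI67 rose 2.11-fold in SCC047 and 2.51-fold in 93VU147T, with -0.13 in SCC090 (95% CI -0.34 to 0.07) and a difference of 1.34 ± 0.12 (adjusted p = 3.95e-09). CENPF and CENPE, kinetochore proteins, and KIF11, the motor that separates spindle poles, had differences of 1.21, 1.03 and 1.01. FOXM1, the factor that drives G2 genes, had 0.88.

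The inhibitors of the cell cycle and the D cyclins were mixed. Of 12 genes, 4 rose and 4 fell in SCC047, 2 rose and 6 fell in 93VU147T, and 0 were called in SCC090. Among all genes, 17.3% rose and 19% fell in SCC047, and 15.8% rose and 18.8% fell in 93VU147T. The difference was higher for 2, RB1 and RBL1, and lower for 4, against 14% and 13.8% of all genes. RB1, the retinoblastoma protein that holds back E2F factors, rose by 0.54 in SCC047 and by 0.89 in 93VU147T, with 0.15 in SCC090 and a difference of 0.56 (adjusted p = 0.01). CDKN1C, an inhibitor of cyclin-dependent kinases, fell by 0.67 and 1.08, with -0.13 in SCC090 and a difference of -0.74. CDKN1A, its relative, fell by 0.38 and 0.35, and RBL2, a pocket protein of resting cells, fell by 0.79 and 0.51. RBL1, the pocket protein of cycling cells, rose by 1.38 and 1.24, and its SCC090 change of -0.53 was not called (95% CI -1.18 to 0.13). CCND1, the gene of cyclin D1, differed between the pair, with 0.56 in SCC047, which did not pass, and a fall by 1.11 in 93VU147T.

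Histone genes rose too. Of 7 histone genes, 5 had a higher difference, against 14% of all genes, and all 5 were two-line genes. H2BC4 rose by 0.99 and 1.85 with 0.22 in SCC090, and H4C8 rose by 0.68 and 1.53 with 0.01. Their probe sets can share sequence with other histone genes, so a change may belong to a relative.

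The genes of DNA replication separated SCC047 from 93VU147T more than they separated the pair from SCC090. Of 24 genes, 17 rose and 1 fell in SCC047, 4 rose and 9 fell in 93VU147T, and 0 were called in SCC090. Shares over all genes were 17.3% and 19% in SCC047, and 15.8% and 18.8% in 93VU147T. The change in SCC047 exceeded that in 93VU147T for 16 genes and was below it for 0. The difference from SCC090 was higher for 8 and lower for 0, against 14% and 13.8% of all genes. Set against SCC090 one at a time, the count was 16 higher for SCC047 and 4 higher for 93VU147T. Of them 4 were two-line genes, among them MCM10, a factor of replication origin firing, which rose 2.24-fold and 1.27-fold with -0.21 in SCC090, and RRM2, a subunit of ribonucleotide reductase, with changes of 0.96, 0.56 and -0.19.

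Ribosome biogenesis had the same form. Of 12 genes, 11 rose in SCC047, 4 rose and 2 fell in 93VU147T, and 0 were called in SCC090. The difference was higher for 10, against 14% of all genes, and 10 had a larger change in SCC047 than in 93VU147T. NOP58, a core protein of box C/D snoRNPs, read 9.33, 9.44 and 9.38 in SCC047 controls and 10.52, 10.40 and 10.60 after cetuximab. In 93VU147T NOP58 read 9.29, 9.35 and 9.75 and then 10.19, 10.14 and 10.32, and in SCC090 10.14, 9.98 and 10.08 and then 10.14, 10.01 and 9.87. The SCC090 groups overlapped and the others did not. NCL, the gene of nucleolin, rose by 0.92 and 0.44, with -0.03 in SCC090.

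Chaperones of the heat shock response rose in the same pair of lines. Of 7 genes, 5 had a higher difference and all 5 were two-line genes, while 2 had a lower one. Over all genes the shares were 14% higher and 13.8% lower. HSPH1, a nucleotide exchange factor of HSP70, read 9.42, 9.27 and 9.35 in SCC047 controls and 10.55, 10.36 and 10.44 after cetuximab. In 93VU147T HSPH1 read 9.79, 9.81 and 9.85 and then 10.64, 10.57 and 10.71. In SCC090 HSPH1 read 11.03, 10.74 and 10.93 and then 10.94, 10.77 and 10.70. The first pair of lines separated by treatment and SCC090 did not. HSPH1 rose 2.15-fold and 1.77-fold, with a difference of 1.06 ± 0.11 (adjusted p = 1.88e-08). DNAJA1, a cofactor of HSP70, had a difference of 1.07, HSPE1 and HSPD1, the mitochondrial chaperonins, 0.75 and 0.58, and HSP90AA1 0.55. DNAJB1 and HSPB1 had -0.36 and -0.33, and neither was called without SCC090 control replicate 1, when the list had 5 higher and 0 lower.

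The unfolded protein response had 7 higher and 2 lower of 13, and 1 of the higher ones was a two-line gene. For this and the next lists, 14% of all genes had a higher difference and 13.8% a lower one. In SCC047 6 genes rose and 2 fell, in 93VU147T 1 rose and 2 fell, and in SCC090 0 rose and 1 fell. The medians were 0.201, -0.04 and -0.201, and the SCC090 median was -0.12 without SCC090 control replicate 1. XBP1, a factor spliced under that stress, was lower in both lines (-0.32 and -1.29, with -0.04 in SCC090). Targets of ATF4 and amino acid stress had 3 higher and 9 lower of 20 (1 and 7 without SCC090 control replicate 1), carried mainly by 93VU147T, where 13 fell against 4 in SCC047, and the fall was larger in 93VU147T for 10. ASNS, asparagine synthetase, fell 5.64-fold in 93VU147T, with -0.42 in SCC047 and -0.41 in SCC090, where neither was called. Of the list, 4 were two-line genes with a lower difference. They were ATF4 itself (-0.33, -1.40 and -0.28), DDIT3, PHGDH and SHMT2. Of 15 glycolytic genes, 4 had a higher difference (PKM, LDHA, HK2 and PGAM1, between 0.48 and 0.52) and 2 a lower one, or 4 and 1 without SCC090 control replicate 1.

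Targets of FOXO factors, which are active when growth factor signalling is low, had 0 higher and 9 lower differences of 14. The shares over all genes were 14% and 13.8%. The medians of the list were -0.427 in SCC047, -0.292 in 93VU147T and 0.202 in SCC090, or 0.09 in SCC090 without its control replicate 1. TXNIP, the thioredoxin inhibitor that limits glucose uptake, read 11.75, 11.82 and 11.53 in SCC047 controls and 9.94 and 9.68, with 10 on the remaining array, after cetuximab. In 93VU147T TXNIP read 11.91, 12.05 and 12.02 and then 10.71, 10.57 and 10.66. In SCC090 TXNIP read 8.20, 10.11 and 10.16 and then 10.62, 10.47 and 10.42. TXNIP fell 3.55-fold and 2.55-fold and was 1.01 higher in SCC090, where control replicate 1 was far below the rest. Without that array the SCC090 change was 0.362 (adjusted p = 0.177) and was not called, and the difference of -2.60 became -1.95 (adjusted p = 4.68e-12). Of 14 BCL2 family genes, 7 differences were lower and 0 higher, against 13.8% and 14% of all genes. The list had 3 two-line genes, the proapoptotic BAD and HRK and the antiapoptotic BCL2L1, though another probe set of BAD had the opposite sign. Of the 7 probe sets of BCL2L11, whose chosen probe set gave a lower difference, 3 were called higher and 1 lower. The two-line genes of this list numbered 1 with centred medians and 2 without SCC090 control replicate 1, when the difference of HRK was not called (adjusted p = 0.0854).

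For 19 genes the call in SCC090 had the opposite sign to the calls in both other lines, and the difference passed for all 19. Of these, 14 fell in SCC047 and 93VU147T and rose in SCC090, and 5 did the reverse. With SCC090 control replicate 1 left out they numbered 4, which were ASS1, SIK1, EFEMP1 and ADGRE5. ASS1, the enzyme of arginine synthesis, read 13.02, 13.13 and 13.15 in SCC047 controls and 12.23, 12.61 and 12.84 after cetuximab. In 93VU147T ASS1 read 11.25, 11.04 and 11.25 and then 9.75, 9.82 and 9.86, and in SCC090 7.76, 8.74 and 8.45 and then 9.17, 9.19 and 9.26. Treated arrays were below the controls in the first pair and above them in SCC090. The SCC090 rise of ASS1 was 0.609 without SCC090 control replicate 1 (adjusted p = 0.0267). CLIC3, a chloride channel protein, had 0.72 in SCC090, and its call there was lost without that array (adjusted p = 0.16). SLC40A1, the iron exporter, SIK1, a salt-inducible kinase, TSC22D3, a glucocorticoid-induced leucine zipper protein, and WNT4, a secreted ligand, fell in the first pair and rose in SCC090 by 0.75, 0.97, 0.64 and 0.59. These genes were named after their values were seen.

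Some genes of keratinocyte differentiation rose in SCC090. Of 22 genes, 6 rose and 0 fell there, where 0.516% of all genes rose. In SCC047 5 rose and 0 fell, against 17.3% of all genes that rose. In 93VU147T 5 rose and 1 fell, against 15.8% that rose. The medians of the list were 0.057 in SCC047, 0.012 in 93VU147T and 0.402 in SCC090, or 0.316 in SCC090 without its control replicate 1. The difference was lower for 7 and higher for 3, against 13.8% and 14% of all genes. KRT16, a keratin of activated keratinocytes, belongs to a neighbouring list. It read 9.35, 9.07 and 8.78 in SCC047 controls and 7.74, 8.21 and 7.53 after cetuximab. In 93VU147T KRT16 read 5.91, 5.65 and 5.40 and then 5.79, 5.70 and 5.66, and in SCC090 7.64, 7.98 and 7.67 and then 9.01, 9.25 and 9.21. It fell in SCC047, overlapped in 93VU147T and rose in SCC090, with a difference of -1.98, or -1.914 without SCC090 control replicate 1.

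KRT4, a keratin of wet stratified epithelium, read 6.20, 8.75 and 8.42 in SCC090 controls and 9.56, 9.64 and 9.86 after cetuximab. Every treated array was above every control, and control replicate 1 was the lowest. Its SCC090 rise was 1.90, and 1.107 without that array (adjusted p = 0.00467). KRT13, the partner of KRT4, rose by 1.51 in SCC090, and by 1.12 in 93VU147T, with -0.73 in SCC047, and the SCC090 call was lost without that array (adjusted p = 0.0846). MAL, a membrane sorting protein, rose by 1.04 in SCC090, or 0.573 without it. For the whole list without that array, SCC090 had 2 higher genes and the difference was higher for 3 and lower for 4. DSC2, a desmosomal cadherin, and GRHL3, a factor of the epidermal barrier, were two-line genes with differences of 0.56 and 0.61. A total of 103 genes were called in SCC090 and in neither other line, and the difference was called for 90 of them. The genes called in SCC090 alone numbered 17 without SCC090 control replicate 1.

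Single genes with large differences came from several functions. NEFL and NEFM encode neurofilament subunits. NEFL read 7.74, 8.24 and 8.39 in SCC047 controls and 9.92, 9.80 and 10.21 after cetuximab. In 93VU147T NEFL read 7.30, 7.30 and 7.01 and then 9.10, 9.13 and 8.82, and in SCC090 4.39, 4.37 and 4.25 and then 4.63, 4.55 and 4.34. It rose 3.61-fold and 3.51-fold in the pair, and the SCC090 arrays overlapped at a low level. NEFM had a difference of 2.08, though its other probe set did not have the same sign. TNC, the matrix protein tenascin C, rose by 1.43 and 1.37, with an SCC090 change of -0.55 that was -0.118 without SCC090 control replicate 1.

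Among genes that differed from SCC090 in both lines, GASK1B and CAVIN3 had the largest positive differences, 2.77 and 2.20, and the size of both rested on that array. GASK1B read 8.56, 4.12 and 4.39 in SCC090 controls and 3.91, 4.13 and 3.62 after cetuximab. It was called in neither SCC047 nor 93VU147T, and its difference without the array was 1.342 (adjusted p = 2.18e-05). CAVIN3 read 9.03, 6.47 and 6.73 and then 6.15, 6.30 and 5.95, and its difference without the array was 1.394.

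PLAU, the urokinase that activates plasminogen, read 11.10, 10.95 and 10.92 in SCC047 controls and 9.69, 9.59 and 9.65 after cetuximab. In 93VU147T PLAU read 9.71, 9.75 and 10.03 and then 8.63, 8.61 and 8.62. In SCC090 PLAU read 6.38, 6.20 and 6.31 and then 6.28, 6.29 and 6.47, with the groups overlapping. It fell 2.54-fold and 2.31-fold, with a difference of -1.33 ± 0.10 (adjusted p = 2.97e-10). EDN1, the gene of endothelin 1, fell 2.47-fold and 6.13-fold with 0.06 in SCC090. VEGFA, the angiogenic factor, fell by 0.83 and 1.23 with 0.03 in SCC090. INHBA, the activin A subunit, fell by 1.13 and 1.60 with 0.18 in SCC090. GDF15, a secreted stress factor, fell by 0.88 and 1.76 with -0.05.

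The change of EGFR, the target of the antibody, did not separate the lines. EGFR read 11.04, 10.81 and 11.00 in SCC047 controls and 10.98, 10.88 and 11.09 after cetuximab. In 93VU147T EGFR read 10.53, 10.72 and 11.46 and then 10.80, 10.61 and 10.91, and in SCC090 9.17, 9.49 and 9.51 and then 9.57, 9.24 and 9.37. The groups overlapped in every line, and the difference of the response was -0.05 (95% CI -0.40 to 0.29, adjusted p = 0.86). In untreated cells EGFR was 1.53 lower in SCC090 than in the mean of the other lines. Among 5 EGFR ligands the difference was called for 0, while centred medians gave 2 higher and 0 lower, and leaving out SCC090 control replicate 1 gave 0 higher and 1 lower. Of 14 growth factor receptors 1 was higher, MET, and 4 were lower, FGFR3, INSR, ERBB3 and ERBB2, against 14% and 13.8% of all genes. Without SCC090 control replicate 1 INSR remained of the lower ones, and the differences of MET, FGFR3, ERBB3 and ERBB2 were not called (adjusted p = 0.144, 0.135, 0.118 and 0.0766). TFAP2A and TFAP2C, the genes of AP-2alpha and AP-2gamma, had differences of 0.07 and -0.19 and were not called.

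The remaining lists were small or mixed, and some moved without SCC090 control replicate 1. Over all genes, 14% had a higher difference and 13.8% a lower one, and several of these lists lay near those shares. The difference was higher for 4 and lower for 4 of 14 hypoxia genes, 3 and 2 of 12 p53 targets, 2 and 4 of 11 NRF2 targets, and 2 and 2 of 11 sterol synthesis genes. It was higher for 3 and lower for 1 of 9 fatty acid synthesis genes and for 2 and 4 of 14 genes of lysosomes and autophagy. Among signalling lists it was higher for 1 and lower for 4 of 17 TGF-beta and BMP response genes, 0 and 3 of 10 Notch pathway genes and 1 and 3 of 10 YAP and TEAD targets. Among epithelial lists it was higher for 1 and lower for 1 of 11 basal keratinocyte genes and for 2 and 1 of 10 mesenchymal genes. Of 11 matrix protease and plasminogen genes it was higher for 1 and lower for 2. Leaving out SCC090 control replicate 1 raised the lower differences to 7 for TGF-beta and BMP response, where 2 were then higher, and to 5 for YAP and TEAD targets, where 0 were then higher. It left 3 higher and 2 lower hypoxia genes, 0 higher and 4 lower NRF2 targets, 2 higher and 1 lower sterol synthesis genes, 1 higher and 4 lower genes of lysosomes and autophagy, 1 higher and 2 lower basal keratinocyte genes, and 1 higher and 0 lower mesenchymal genes.

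**Figure D5:**
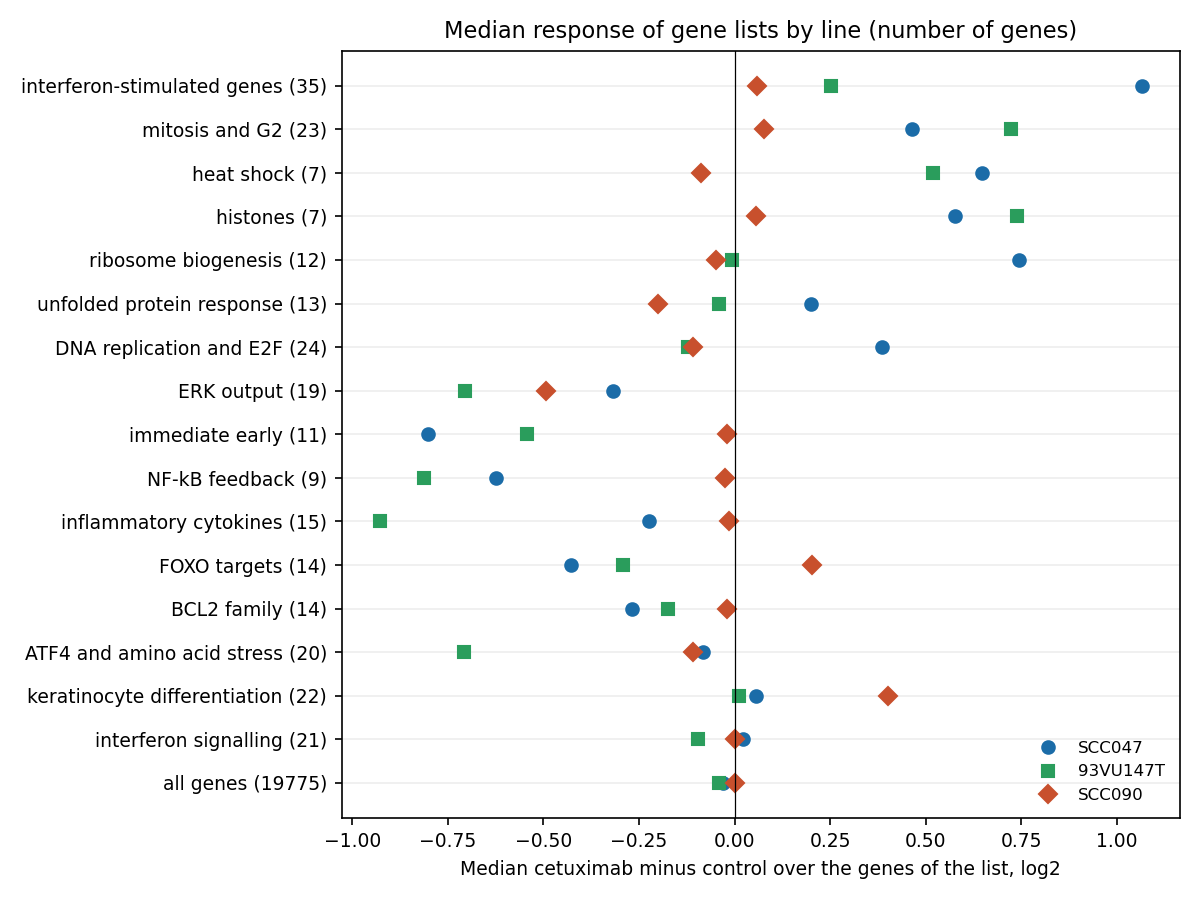
Median change with cetuximab (x axis, log2) over the genes of 16 lists and over all genes, in SCC047 (circles), 93VU147T (squares) and SCC090 (diamonds), with the number of genes in brackets. The SCC090 medians lie near 0 except for ERK output, FOXO targets, keratinocyte differentiation and the unfolded protein response. Without SCC090 control replicate 1 these SCC090 medians are -0.283, 0.09, 0.316 and -0.12, in that order.

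The two-line genes were looked up in the HPV-negative lines SCC25, SQ20B and SCC61, as a description. Their arrays entered the choice of probe sets and the shared estimate of spread, but not the changes that defined the set. Background shares of all genes called higher and lower were 8.66% and 7.3% in SCC25, 18.4% and 14.9% in SQ20B, and 24.4% and 19.8% in SCC61. Of the 1540 genes higher in SCC047 and 93VU147T, 889 were higher in SCC61 (57.7%), 235 in SQ20B (15.3%) and 135 in SCC25 (8.77%). Lower calls among them numbered 191 in SCC61 (12.4%), 490 in SQ20B (31.8%) and 268 in SCC25 (17.4%). Of the 1411 lower genes, 581 were lower in SCC61 (41.2%), 131 in SQ20B (9.28%) and 86 in SCC25 (6.09%), and higher calls numbered 256 (18.1%), 644 (45.6%) and 267 (18.9%). As shares of each line's own calls in the same direction, the overlaps were 18.4% and 14.9% in SCC61, 6.47% and 4.44% in SQ20B, and 7.88% and 5.96% in SCC25. Over the whole set, the overlap was therefore above the background share in SCC61, while opposite calls were above it in SQ20B and SCC25. Some lists did not follow this. Of 35 interferon-stimulated genes, 26 rose in SCC25, 18 in SQ20B and 31 in SCC61, with 0, 0 and 1 lower. Of 7 histone genes, 6, 4 and 2 rose and 0, 0 and 2 fell in those lines. Of 23 genes of mitosis, 0, 5 and 21 rose and 15, 2 and 0 fell.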

How the data were processed

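RNA from HNSCC lines was hybridised to Affymetrix hgu133plus2.0 arrays. The deposited values are log2 levels of probe sets that the authors normalised with fRMA 1.16.0. The methods also name pSVA for batch effects, and the sources do not settle whether the deposited values include it. The values were used as deposited.

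Of 54675 probe sets, 41091 carry 1 gene symbol in the platform annotation, 1801 carry several, 11721 are unlisted and 62 are array controls. Each of 19775 genes was represented by its probe set of highest mean level across the 42 arrays. In limma 3.58.1 (R 4.3.3) 12 group means were fitted to 36 arrays (3 per group, treated and untreated, of 6 lines), with 24 residual and 6.86 prior degrees of freedom. P-values were adjusted by Benjamini-Hochberg over all genes, with a threshold of 0.05, and confidence intervals are 95%. Contrasts were the change in each line, their differences and the untreated levels. Groups came from the labels.

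The members and the 42 gene lists were chosen with earlier results of these data known, so counts over lists are descriptions without a set test. The 15 largest differences in each direction among genes that differed from SCC090 in both lines with 1 sign, up to 8 members per list with the largest absolute difference (all members of lists no longer than that), the study's own genes of interest and the 10 largest changes called in SCC090 alone were named by rule, and others were named after their values were seen. Promoters are RefSeq sequences of GRCh38.p14. The fit was tested on simulated data. These had independent noise with the same SD in all groups, so they held no array that stood apart. Arrays give no read depth, and their number limits the precision.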

Additional observations from a re-analysis of the deposited data

Results flagged for a closer look

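The results given here were picked out by a test of a difference between lines. The response differed between SCC047 with 93VU147T and SCC090 for 5493 genes in limma. It differed between SCC047 and 93VU147T for 3423 genes, 1825 with a larger and 1598 with a smaller change in SCC047. For 19 genes the calls in both lines had one sign and the call in SCC090 the other, and this number was 4 without SCC090 control replicate 1.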

How the results depend on the processing

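With a minimum change of 0.5 on the log2 scale in place of 0, the difference of the response was called for 265 genes, both lines differed from SCC090 for 88, the two-line genes numbered 115, and the calls were 728 in SCC047, 540 in 93VU147T and 2 in SCC090. With array weights, chosen after seeing the data, 93VU147T had 11309 calls. Fitted on the 18 HPV-positive arrays alone, SCC090 had 47. Leaving out 1 array at a time moved the SCC090 calls between 50 (without control replicate 1) and 745 (without control replicate 2), while the other counts of calls stayed within 1.5 times their value. Those counts did so as well, in all 3 lines and for the difference, with another probe set per gene, the mean of its probe sets, dim genes left out, centred medians, quantile normalization, all 42 arrays, scan batch as a covariate and moderation with a trend.

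Another choice of probe set turned the sign of the difference for BAD (0.273), BCL2L11 (0.186, and 0.339 for the mean of its probe sets), IRF1 (0.037), MS4A1 (0.375), NQO1 (0.024) and SKIL (1.171). The cause was not tested.

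The labels do not say whether the replicate numbers pair the samples, and the main fit did not pair them. The correlations of same-numbered arrays were -0.03, 0.26 and 0.09 in SCC047, -0.09, 0.03 and 0.32 in 93VU147T and -0.02, -0.01 and -0.15 in SCC090. With the replicate number as a block the difference was called for 5710 genes, both lines differed for 2563, the two-line genes numbered 3091, and the calls were 7317, 6997 and 353 in SCC047, 93VU147T and SCC090.

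A missing call in SCC090 says that a change was not detectable with 3 arrays per group.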
